A study of Mus musculus with 8 samples.

Results

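Introns that were read at their 3′ boundary and hardly at their 5′ boundary are described here, in RNA from mouse bone marrow monocytes and their precursors. They were chosen from the measured values: over the 6 libraries without the knockout, at least 100 reads crossed the boundary between the intron and its downstream exon, and the reads across the upstream boundary came to at most 10% of them. Eligible introns were 101 to 19999 bases long, occurred in all 8 deposited intron tables and carried no mark of an overlapping feature in any. The choice gave 1789 introns in 1143 genes, of 149562 eligible introns and 204362 introns in all tables. They end at 1698 distinct acceptors (the splice site at the 3′ end of an intron), and 337 genes hold several, with 15 in Fn1. Their counts at the 2 boundaries fixed the choice, so the level and the sidedness of those counts in the 6 libraries are given as a description and without a test. Changes between groups come from a fit over all introns with enough reads, adjusted over all of them. They use the same 3′ counts, so what the choice rested on is given beside each.

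In splicing, the donor at the 5′ end of an intron is joined to the acceptor at its 3′ end, and the intron is removed as a lariat. A retained intron is present whole in the mature RNA, so reads cross both of its boundaries. Reads across the 3′ boundary alone are known from several kinds of transcript, among them those that use an acceptor further upstream and those that begin inside the intron at another promoter. Acceptors that lie a few bases apart, as tandem AG dinucleotides, are a common form of alternative splicing.

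The study followed intron retention along monocyte differentiation. Polyadenylated RNA was sequenced from MDP (monocyte-dendritic cell progenitors, 1 library labelled wild type), cMoP (common monocyte progenitors, 2 libraries from floxed cells), Ly6Chi monocytes (2 libraries from floxed cells), Ly6Clo monocytes (1 library labelled wild type) and Upf2 knockout Ly6Chi monocytes (2 libraries). Upf2 is a core factor of nonsense-mediated decay, the pathway that removes transcripts carrying an early stop codon. The labels describe untreated cells of healthy bone marrow in the source names and a monocytic cell line in the cell type tag. They name no Cre driver, age, sex or number of animals. Whether the replicates are separate animals is not stated, so each p-value reflects the scatter of these libraries alone, and that scatter may be technical.

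Spliced reads came to 28726135 to 37591021 per library and boundary reads to 2275931 to 3311504. Reads spliced from Upf2 exon 2 to exon 3 numbered 16 to 59 in the 6 other libraries and 10 and 13 in the knockout libraries, while the level of the Upf2 transcript in TPM, an abundance scaled to the library, was 18.19 to 23.09 in those 6 and 20.37 and 22.45 in the knockout. The TPM thus did not separate the groups. Summed TPM of the progenitor markers Flt3, Kit and Cd34 was highest in MDP (702) and that of Mpo, Elane, Ctsg and Prtn3 highest in cMoP (25300 and 23500). The Ly6Clo markers Nr4a1, Itgax, Cd36, Pparg and Ear2 summed to 4110 in Ly6Clo and to at most 293 elsewhere. Ly6Clo also had the most of the 7 neutrophil markers (4950 TPM against 290 to 2120, with none at 0) and of the 4 erythroid markers (188 TPM against 2.57 to 112, with none at 0). Library cMoP replicate 2 stood apart: the chosen introns held 41% of its 3′ boundary reads over unmarked introns, against 24.7% to 31.0% in the other 7.

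The sequences that carry the result are shown first. In the first set an annotated acceptor lies 3 or 4 bases inside the intron. Each line is read 5′ to 3′ on the transcript that uses the upstream acceptor, with the bases inside the listed intron in capitals. These are the 8 introns with this distance and the most 3′ reads, a set formed after the values were seen, and they are printed because the intron's listed end and the annotated exon start differ by these few letters alone.
Rpl11: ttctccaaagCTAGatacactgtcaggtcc
Aldh2: agggaacaagGAGgacgtagacaaggcagt
S100a9: tttagccttgAAGagcaagaagatggccaa
Anxa1: ggaatatgttCAAGctgtaaaatcatacaa
Fcgr3: aggcagagtgCAGctcttccgaaggctgtg
Rbm3: acagtggcagAAGccagggtggctatgacc
H2afy: gaagtctaagAAGaagcagggagaagtgag
Fxyd5: accagagaagCAGaagccacaggaagccag
The next 3 introns, picked after their values were seen, hold an annotated acceptor further inside. Only the last 20 bases of the intron are shown in capitals, followed by the first bases of the downstream exon.
Rps3: CCCCCATCTCCGAACAGAAGggtgggaagc
Hnrnpk: TCGGATCATTACCATTACAGgaacacagga
Fn1: CTTGGATGTTCCCTCCACAGttcaaaagac
The last 4 belong to introns that hold an annotated transcript start and passed the test in a comparison, on reads that the choice also used. The intron's last bases are again in capitals.
Ccdc12: GTTGTCTCCTTTCTCCCTAGgacctggcca
Ikbkap: CATTTCTTCTCTAGatgaggtgcg
Ubtf: GTTTGGTGTCTCTTCAAAAGggtgaggtgg
Fbxw4: GTCCTCCTTTTGTTTGGCAGctcttttgtg
All were taken from GENCODE M21 transcripts on GRCm38. Of the 667 chosen introns with an annotated acceptor inside, the listed end of 649 (97.3%) was the dinucleotide AG.

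The strand of these introns was unevenly divided. Of the 1789, 1599 (89.4%) lay on the minus strand, against 49.7% of eligible introns and 58.6% of the 7871 other introns with at least 100 reads at the 3′ boundary. On the minus strand the 3′ boundary is the boundary with the lower genome coordinate. The same choice made for the other side, at least 100 reads at the 5′ boundary and at most 10% of them at the 3′ boundary, gave 1172 introns, of which 83 (7.08%) lay on the minus strand. Together, 2688 of 2961 introns read at a single boundary (90.8%) were high at the boundary with the lower coordinate. Reads at that boundary outnumbered those at the other in every library, by 1.34 to 2.03 times over plus-strand introns and by 2.40 to 4.68 times over minus-strand introns. With the chosen introns left out, the ratios were 1.45 to 2.75 and 1.55 to 2.36. The highest of each of these 4 ranges was that of cMoP replicate 2. The part of this imbalance in the 3′ boundary counts was not tested.

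Depth inside the intron also split the introns by strand. The tables give a read depth at each end of the intron, and at the 3′ end it was divided by the 3′ boundary reads. The median was 0.921 for the 190 plus-strand introns and 0.0635 for the 1599 minus-strand introns. At least 0.5 was reached by 156 of the former (82.1%) and 349 of the latter (21.8%), 505 in all (28.2%). A further 361 introns fell below 0.5, but their donor was also spliced to a site other than the listed acceptor, by at least 0.5 reads for each 3′ boundary read. The remaining 923 (51.6%) had neither, and 903 of them lay on the minus strand. Their 3′ boundary reads were a median 3.78% of all reads at the acceptor, counting boundary and spliced reads together, beside a median of 4764 reads spliced there. The 923 were not alike: 763 had no annotated feature (median share 3.5%), and 76 held an annotated acceptor inside (median 98.6%). Another 68 held an annotated start (5.28%), and 16 were covered by an annotated exon (3.0%). For these 923 introns the description as read at the 3′ boundary rests on boundary counts with little depth behind them. Depth was also low in chosen introns with an annotated acceptor just inside, with a median of 0.0126 per 3′ read at 3 bases.

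**Figure D1:**
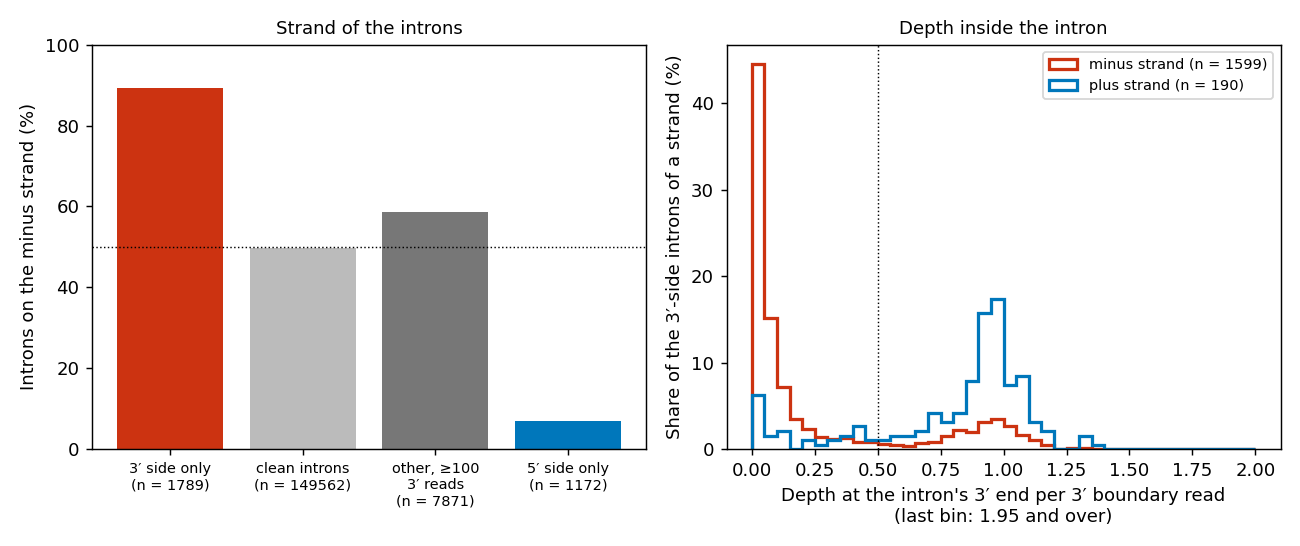
Left, the percentage of introns on the minus strand for the 1789 introns read at the 3′ side, all eligible introns, the other introns with at least 100 3′ reads and the introns read at the 5′ side, with a dotted line at 50%. Right, depth at the 3′ end of the intron per 3′ boundary read, as a share of the introns of each strand, with a dotted line at 0.5. Minus-strand introns gather near 0 and plus-strand introns near 1.

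By annotation, the introns fell into 4 classes that do not overlap. An annotated acceptor lay inside 667 (37.3%), against 1.91% of eligible introns, 5.22% of the other introns with at least 100 reads and 0.683% of those read at the 5′ side. A further 196 (11%) held an annotated transcript start whose exon ran through the 3′ boundary, and 23 were covered whole by an annotated exon. No such feature was annotated for 903 (50.5%), of which 859 lay on the minus strand. Counting overlaps, 289 introns (16.2%) held an annotated start, against 5.90% of eligible introns and 17.8% of the other introns with at least 100 reads. The share of first introns was 35.0% (eligible 20.1%, other introns 21.6%). The downstream exon began in the 5′ untranslated region in 14.5% (eligible 5.99%).

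These classes differed in how much of the acceptor's use the 3′ boundary reads made up. The median was 96.5% with an annotated acceptor inside, 16.8% with an annotated start, 3.67% with an exon over the whole intron and 3.74% with none. Over all 1789 it was 9.72%: 656 introns had at least 50% and 905 under 10%. No read at all was spliced to the listed acceptor in 154. Among introns with no annotated feature, the median depth per 3′ read was 0.911 on the plus strand (38 of 44 at 0.5 or more) and 0.0494 on the minus strand (56 of 859).

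Distances to the annotated acceptor were short, with a median of 18 bases and at most 9 bases in 278 introns. Exactly 3 or 4 bases separated the sites in 185, and all 185 lay on the minus strand. Of eligible minus-strand introns with such a distance, 148 of 353 (3 bases) and 37 of 78 (4 bases) were among the chosen introns, against 0 of 63 and 0 of 25 on the plus strand. The 3 bases read CAG in 105 introns, AAG in 22, TAG in 14 and GAG in 7. Their median share of 3′ boundary reads was 74.3% for CAG, 91.7% for AAG, 77.4% for TAG and 100% for GAG (medians over introns, described without a test). The depth per 3′ read was larger at longer distances, from a median of 0.0126 at 3 bases to 0.346 at 10 to 49 bases and 0.987 at 50 to 99 bases.

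Where the tables also listed the intron that ends at the upstream acceptor, the counts could be set side by side. In the 166 such introns with at least 100 reads spliced at the upstream acceptor, the median was 1.11 reads across the listed 3′ boundary for each read spliced at the upstream acceptor (quartiles 1.02 and 1.23). For Etfb, an electron transfer flavoprotein subunit, the boundary of the intron chr7:43457246-43457578 carried 11797 reads, and 12159 reads were spliced 9 bases upstream. For Sp100, a nuclear body protein (chr1:85671891-85673681), the counts were 5484 and 5550 at a distance of 57 bases.

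Rpl11, a protein of the large ribosomal subunit, had the most reads. Its minus-strand intron chr4:136051717-136052566 is the one with the 4 bases CTAG in the first set. The 3′ boundary carried 14649 reads (MDP), 18709 and 23198 (cMoP), 8008 and 9630 (Ly6Chi), 7980 (Ly6Clo), and 13383 and 10650 (knockout). Reads spliced at the listed acceptor numbered 3 to 10 in every library, so the share of 3′ reads was 99.9% or 100% throughout, while the depth per read was 0.00132. Rps3, a protein of the small subunit, followed with 71079 reads (chr7:99479328-99481696, annotated acceptor 143 bases inside) and a depth per read of 1.28. Its donor was spliced 85237 times, never to the listed acceptor. Ribosomal protein genes have processed pseudogenes, and H2-K1 and Ly6c2 have close relatives, so their counts are uncertain where reads could be shared.

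The tandem acceptors held different but steady shares across the cell types. Rbm3, an RNA-binding protein induced by mild cold (chrX:8143330-8143657), had 3′ shares of 48.9% for MDP, 48.5% and 49.2% for cMoP, 48.4% and 48.7% for Ly6Chi, 49.4% for Ly6Clo and 47.1% and 48.7% for the knockout. H2afy, which encodes the histone variant macroH2A1 (chr13:56096232-56104301), ranged from 32.1% to 34.9%. S100a9, a subunit of the calcium-binding alarmin calprotectin (chr3:90695295-90695667), ranged from 83.8% to 88.7%. In each of these 3 the groups lay within a few points of one another.

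Other tandem sites described here held shares from about 20% to nearly all reads, and the lowest share at a distance of 3 bases was 6.0%. Fcgr3, a low-affinity receptor for immunoglobulin G (chr1:171057946-171058585), had 78.9% in MDP, where it rested on 30 reads at the boundary, and 85.1% to 88.4% elsewhere. Fxyd5, a regulator of the sodium pump (chr7:31037929-31039037), had 19.7% in Ly6Clo and 21.2% to 24.4% elsewhere. The mitochondrial aldehyde dehydrogenase Aldh2 (chr5:121579742-121580613) stood at 99.7% to 99.9% in all 8 libraries. The scavenger receptor Cd36 (chr5:17828982-17829455) was read almost only in Ly6Clo, with 1823 boundary reads there (82.4%) and at most 12 in any other library. Its levels in the other groups are too low for a share to be compared.

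**Figure D2:**
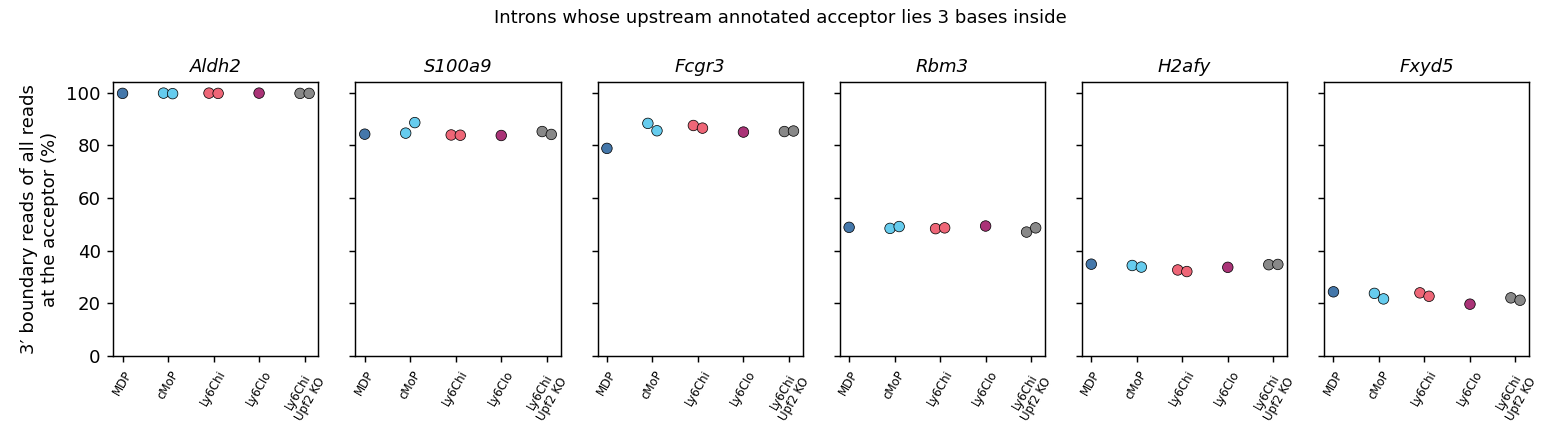
Percentage of reads at the listed acceptor that cross the 3′ boundary, one point per library, for 6 introns with an annotated acceptor 3 bases inside. Aldh2 lies near 100%, S100a9 and Fcgr3 between 78.9% and 88.7%, Rbm3 near 49%, H2afy near 34% and Fxyd5 near 22%, with little movement between groups.

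Fn1 and Hnrnpk, with an annotated acceptor further inside, followed the same form with depth behind the reads. Fn1 encodes fibronectin, a matrix protein made by Ly6Chi monocytes. The 3′ boundary of its intron chr1:71597673-71598373 (annotated acceptor 75 bases inside, depth per read 0.996) carried 17 reads (MDP), 79 and 31 (cMoP), 10037 and 8828 (Ly6Chi), 106 (Ly6Clo), and 6738 and 7128 (knockout). The share was 58.6% for MDP, 63.7% and 63.3% for cMoP, 53.5% and 52.3% for Ly6Chi, 49.5% for Ly6Clo and 51.9% and 52.3% for the knockout. The cMoP libraries lay above the Ly6Chi libraries, but the change did not pass the test (log2 change -0.63 ± 0.32 SE, adjusted p = 0.534, edgeR's quasi-likelihood test). Hnrnpk, a splicing regulator (chr13:58393242-58393691, 124 bases), stood at 99.9% or 100% in every library, with a depth per read of 0.989.

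Apoe, the lipid carrier apolipoprotein E (chr7:19697615-19698187, annotated acceptor 33 bases inside), varied widely in its reads. Its boundary carried 26 reads (MDP), 93 and 50 (cMoP), 3227 and 4624 (Ly6Chi), 35709 (Ly6Clo), and 2726 and 1710 (knockout). The share was 99.4% to 100% in every library, while the reads differed by orders of magnitude. Its depth per read was 0.719. H2-K1, a major histocompatibility class I heavy chain (chr17:33996477-33996615, 27 bases), had shares of 94.6% to 95.9% and a depth per read of 0.399.

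Introns with an annotated start and no annotated acceptor inside had a median share of 55.7% on the plus strand and 9.41% on the minus strand. Among those named, the share ran from 0.123% in Plac8 to 99.6% in Crip1. Prtn3, the granule protease proteinase 3, had the most reads of those on the plus strand (chr10:79880594-79881035, start 32 bases inside). Its boundary carried 3069 reads (MDP), 6033 and 7075 (cMoP), 352 and 414 (Ly6Chi), 28 (Ly6Clo), and 567 and 579 (knockout). Its depth per 3′ read was 0.225, and 6 donor reads were spliced elsewhere. It is therefore one of the 923 introns with neither depth nor other donor splicing. The share was 44.3% in MDP and 17.1% and 16.9% in cMoP, a log2 change of -1.96 ± 0.33 SE that did not pass the main test (adjusted p = 0.409, edgeR). It passed under 3 of 11 alternatives, with adjusted p-values of 8.05e-07 to 1.0, among them the fit with no filter on low counts. Krt80, a type II keratin (chr15:101364419-101369754, start 160 bases inside, named after its values were seen), carried 3688 boundary reads in Ly6Clo (82.8%), 155 and 119 in Ly6Chi (19.8% and 15.1%), 28 and 40 in the knockout and at most 1 in MDP and cMoP. It had too few reads in the progenitors to enter the main test.

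In the ribosomal protein gene Rps7 (chr12:28634353-28635415, minus strand), which has no annotated feature, 5941 boundary reads stood beside 64984 reads spliced at the acceptor. The share was 6.88% for MDP, 8.29% and 9.28% for cMoP, 9.06% and 8.65% for Ly6Chi, 7.66% for Ly6Clo and 8.88% and 8.30% for the knockout. Its depth per 3′ read was 0.00883, and 35 donor reads were spliced elsewhere. Actb, cytoplasmic beta-actin (chr5:142903942-142904066), was alike, with 4744 boundary reads, shares of 3.31% to 3.93% and a depth per read of 0.0476. These 2 are examples of the 923 introns with neither depth nor other donor splicing.

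Of the 903 introns without annotation, 140 (15.5%) had depth or donor splicing elsewhere. Mycbp2, a ubiquitin ligase, was spliced from its donor 796 times over the 6 libraries (chr14:103147030-103148507), of which 214 reached the listed acceptor, beside 834 boundary reads and a depth of 0. Fermt3, the kindlin of blood cells (chr19:7018840-7019277), is not one of them, since an annotated exon covers it whole, and it had 3′ shares of 47.1% to 53.1%, a depth per read of 0.0165 and 45.1% of its donor reads spliced elsewhere. Cyp4f18, a cytochrome P450 of myeloid cells (chr8:72009243-72009578), had a depth per read of 0.916. Its share was 66.7% for MDP, 75.9% and 80.4% for cMoP, 57.5% and 58.4% for Ly6Chi, 30.6% for Ly6Clo and 59.1% and 58.2% for the knockout, lowest in the single Ly6Clo library. Mycbp2 and Cyp4f18 were named after their values were seen.

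The choice did not use the knockout libraries, so the same measure could be read in them. Of 1687 introns with at least 20 reads at the 3′ boundary in the knockout, 1607 (95.3%, Wilson 95% interval 94.1% to 96.2%, counting error only) again had at most 10% as many at the 5′ boundary. The interval treats introns as independent, although some share an acceptor and hence its 3′ reads. It does not measure the spread between libraries. The share was 92.5% on the plus strand and 95.6% on the minus strand. Over all eligible introns with at least 20 such reads, the chosen ones included, the share was 3272 of 12991 (25.2%). Among the other introns with at least 100 3′ reads in the 6 libraries it was 607 of 7134 (8.51%). Those introns had failed the 10% limit in the 6 libraries, so a low share there follows from the choice. A choice made at a threshold lets values near it pass back over it in other libraries. Of the 80 introns that were not read at the 3′ side alone in the knockout, those with the most reads were in Ccnd3, Adssl1, Med25, P4hb and Orc3. Ccnd3, cyclin D3, had 1643 reads at the 3′ and 223 at the 5′ boundary there, and Orc3, an origin recognition subunit, had 179 and 98.

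**Figure D3:**
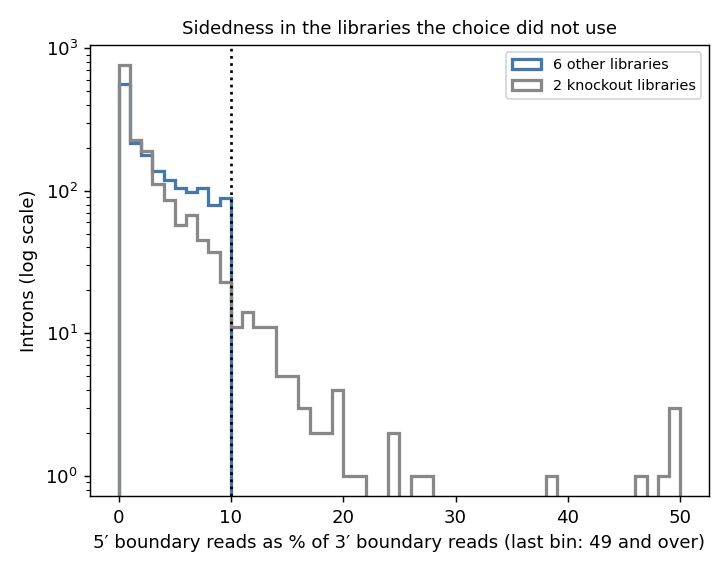
Reads at the 5′ boundary as a percentage of those at the 3′ boundary, for the 1687 introns with at least 20 3′ reads in the knockout, in the 6 libraries used for the choice and in the 2 knockout libraries, with the number of introns on a log scale. The choice ends the first distribution at the dotted line at 10%, and 1607 introns stay at or below it in the knockout.

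Changes between groups were tested as the change of 3′ boundary reads relative to reads spliced at the acceptor, over 35491 introns with edgeR's quasi-likelihood test and Benjamini-Hochberg adjustment. Of the chosen introns, 1561 entered the test and 228 did not. MDP and Ly6Clo are labelled wild type, while cMoP and Ly6Chi come from floxed cells. In cMoP against MDP and Ly6Clo against Ly6Chi, cell type and genotype therefore cannot be told apart. From MDP to cMoP no chosen intron passed (0.0% of all introns tested passed, and 82 chosen introns, 5.25%, had an unadjusted p under 0.05, against 7.04% of all). From cMoP to Ly6Chi 4 passed, where 0.0254% of all tested introns passed. Of the 4, 3 were higher and 1 lower (all introns 0.0169% higher and 0.00845% lower). From Ly6Chi to Ly6Clo 2 passed, both lower, against 0.0113% of all and 0.00845% lower. In the knockout against Ly6Chi none passed, against 0.00282% of all, with 19 (1.22%) under an unadjusted 0.05, against 5.77% of all. DESeq2 called 0, 7, 2 and 0 in the same order. Since the choice needs many 3′ reads in some library, introns high in 1 group were favoured, and these counts are no sign that the chosen introns change more often than others.

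The median log2 change of the chosen introns was -0.02, -0.02, 0.02 and -0.01 in that order, against -0.38, 0.36, 0.14 and -0.27 over all introns tested. This depends on the scaling: with TMM scaling of boundary and spliced reads apart the chosen introns had 0.40, -0.46, -0.18 and 0.30 and all introns -0.01, -0.03, -0.05 and 0.03. With either scaling the chosen median lay above that of all introns from MDP to cMoP and in the knockout, and below it in the other 2. The spread was wider where depth stood behind the reads. From cMoP to Ly6Chi the median size of the log2 change was 0.59 over the 377 tested introns with a depth per read of at least 0.5, and 0.23 over the 1184 with less. Unadjusted p-values under 0.05 numbered 59 (15.6%) and 15 (1.27%). All 6 calls fell among the 377. This split was made after the values were seen and is a description.

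**Figure D4:**
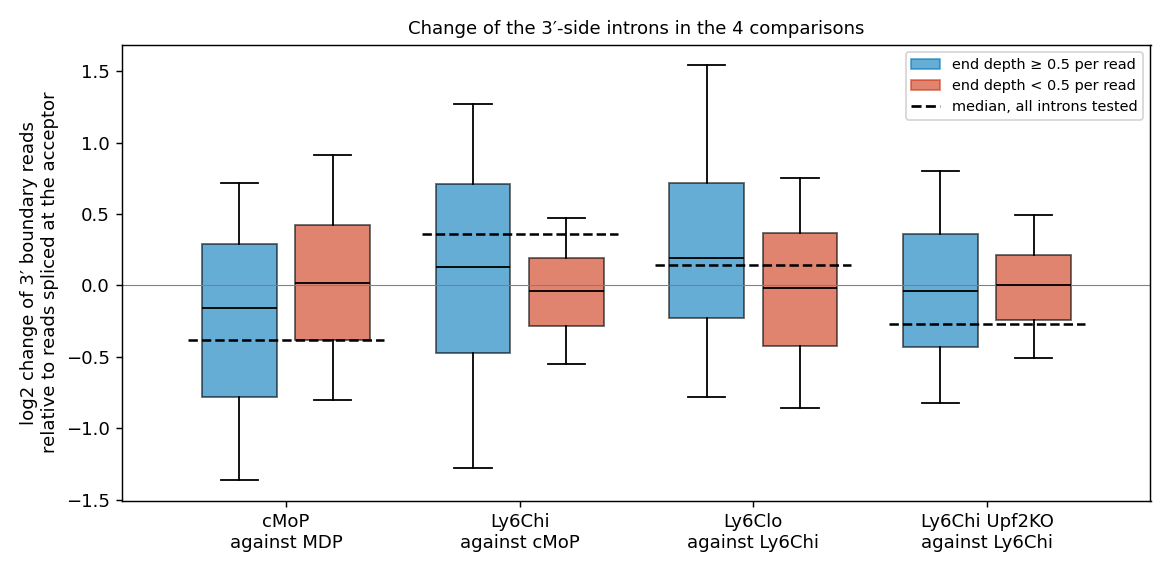
Log2 change of 3′ boundary reads relative to spliced reads in the 4 comparisons, for the 377 tested introns with a depth per 3′ read of at least 0.5 and the 1184 with less (boxes, quartiles and median; whiskers, 10th and 90th percentile), with the median of all introns tested as a dashed line. The introns with less depth lie closer to 0 from cMoP to Ly6Chi, and the medians of both lie below that of all introns there. On this scale the chosen introns lie near 0, which TMM scaling turns to -0.46 against -0.03 for all introns.

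Adssl1, the muscle-type adenylosuccinate synthase of purine metabolism, had the largest change of the 6 calls. Its plus-strand intron 3 of 12 (chr12:112632317-112632694) has no annotated start or acceptor inside and a depth per read of 0.932. The 3′ boundary carried 2 reads (MDP), 9 and 8 (cMoP), 438 and 526 (Ly6Chi), 987 (Ly6Clo), and 335 and 403 (knockout). Reads spliced at the acceptor numbered 740, then 1735 and 1086, then 515 and 554, then 541, then 526 and 455 in the same libraries. The boundary reads therefore separated MDP and cMoP from all monocyte libraries without overlap, with a share of 0.624% ± 0.152 in cMoP and 47.3% ± 1.94 in Ly6Chi (mean ± SD, n = 2 each). At the 5′ boundary MDP had 13 reads and cMoP 32 and 16, more than at the 3′ boundary, so in the progenitors (19 reads at the 3′ and 61 at the 5′ boundary in all) this intron is not read at the 3′ side alone. The monocyte libraries other than the knockout had 1951 and 48, and the choice rests on them, so the test is no independent support for a rise. In the fit over all introns the log2 change from cMoP to Ly6Chi was 7.18 ± 0.45 SE (adjusted p = 5.63e-07, edgeR). Under all 12 alternatives it passed, with adjusted p-values of 4.82e-39 to 0.000881.

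Ccdc12, a coiled-coil protein found in spliceosomes, rose at intron 1 (chr9:110709956-110710126, plus strand, start 83 bases inside). Its boundary carried 103 reads (MDP), 215 and 96 (cMoP), 934 and 962 (Ly6Chi), 782 (Ly6Clo), and 1283 and 1086 (knockout). The share was 9.16% to 24.0% in MDP and cMoP and 53.7% to 60.1% in the monocytes, without overlap. The log2 change from cMoP to Ly6Chi was 2.86 ± 0.46 SE (adjusted p = 0.0378, edgeR). The progenitors alone, with 414 reads at the 3′ and 58 at the 5′ boundary (14%), would not have met the choice. It rests on the monocytes other than the knockout, with 2678 and 30, so the test is no independent support for a rise. Ikbkap, the scaffold subunit of the Elongator complex, was called at intron 1 (chr4:56757272-56758212, minus strand, start 14 bases inside) on few reads: 9 (MDP), 5 and 5 (cMoP), 61 and 18 (Ly6Chi), 8 (Ly6Clo), and 12 and 12 (knockout). Without Ly6Chi it had 27 reads, so it met the choice only through the group in which it was high. Its log2 change of 4.21 is therefore a description and no support for a rise, and the share in Ly6Chi replicate 1 (43.3%) was over 2 times that in replicate 2 (19.4%).

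Ubtf, the upstream binding factor of ribosomal RNA transcription, fell at intron 1 (chr11:102316474-102318847, minus strand, start 202 bases inside, depth per read 0.946). The boundary carried 164 reads (MDP), 183 and 223 (cMoP), 20 and 14 (Ly6Chi), 11 (Ly6Clo), and 14 and 21 (knockout). The share was 41.3% to 54.3% in the progenitors and 4.21% to 12.6% in the monocytes, without overlap, and the log2 change from cMoP to Ly6Chi was -3.65 ± 0.46 SE in the fit over all introns (adjusted p = 0.00439, edgeR). The choice rests on the progenitors, with 570 reads, since the monocytes other than the knockout had 45, so the test is no independent support for a fall. The knockout libraries also had 16 and 13 reads at the 5′ boundary, against 0 or 1 in each other library. RefSeq (GRCm38.p6) places 3 starts inside the intron. The promoter of the one nearest the acceptor is chr11:102316656-102316955 on the minus strand. It is printed because this intron was called and the start lies 232 bases inside it, with the first 50 transcribed bases in capitals.
Ubtf promoter: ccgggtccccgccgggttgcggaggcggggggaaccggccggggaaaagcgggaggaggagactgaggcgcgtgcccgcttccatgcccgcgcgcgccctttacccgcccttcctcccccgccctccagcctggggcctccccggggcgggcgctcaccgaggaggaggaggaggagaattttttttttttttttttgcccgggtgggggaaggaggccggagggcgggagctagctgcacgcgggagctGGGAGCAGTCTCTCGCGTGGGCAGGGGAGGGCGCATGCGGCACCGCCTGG
On either strand it holds the GC box GGGCGG, found in 35.7% of the 32851 promoters of this table, and neither TATAAA (13.6%) nor CCAAT (37.4%).

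Fbxw4, a substrate adaptor of a ubiquitin ligase, fell in Ly6Clo at 2 introns that share an acceptor and hence its reads (chr19:45591795-45592540 and chr19:45591795-45593339, minus strand, start 48 bases inside). The boundary carried 239 reads (MDP), 168 and 131 (cMoP), 192 and 246 (Ly6Chi), 21 (Ly6Clo), and 263 and 262 (knockout). The share was 15% in the single Ly6Clo library and 63.9% to 79.7% in the others. The log2 change from Ly6Chi was -3.50 ± 0.53 SE (adjusted p = 0.0466, edgeR). Both introns meet the choice with Ly6Clo left out (976 reads). Ly6Clo has 1 library, and its spread was taken from the groups with replicates. That library is labelled wild type and Ly6Chi is floxed, so cell type and genotype cannot be told apart here.

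The calls other than Adssl1 depended on which libraries entered. Without either Ly6Chi replicate or either knockout replicate, 1 intron was called from cMoP to Ly6Chi and none from Ly6Chi to Ly6Clo. Without cMoP replicate 2, the library that stood apart, the 4 comparisons called 8, 19, 22 and 7 chosen introns (0.501%, 1.19%, 1.38% and 0.438% of those tested), where 0.13%, 0.161%, 1.22% and 0.758% of all introns were called. Without cMoP replicate 1 they called 68, 77, 21 and 7 (4.36%, 4.93%, 1.35% and 0.448%), where 7.47%, 12.4%, 1.21% and 0.818% of all introns were called.

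**Figure D5:**
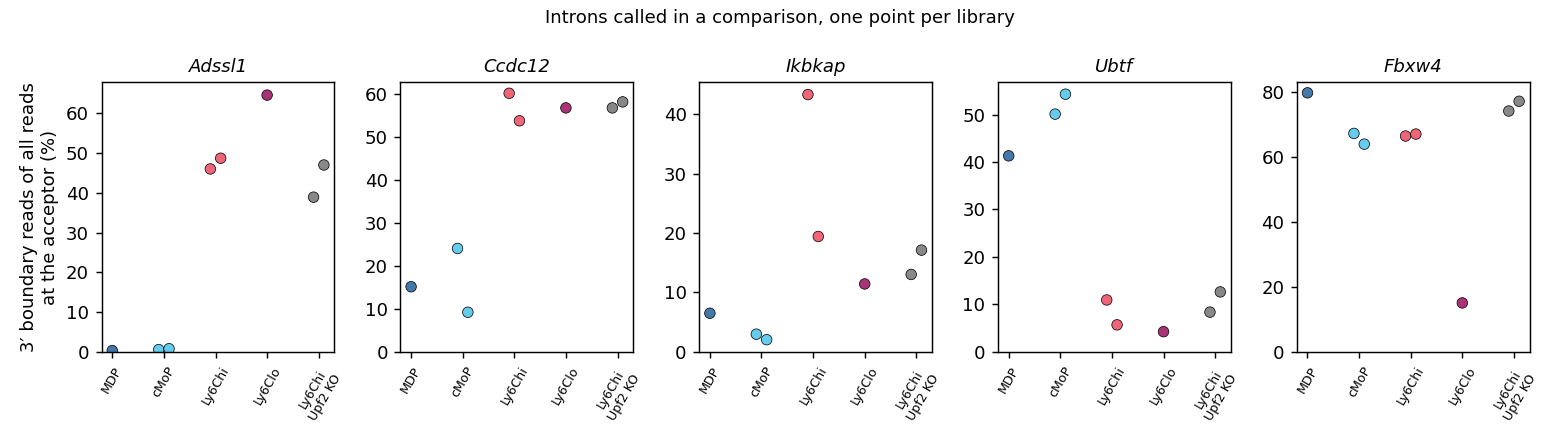
Percentage of reads at the acceptor that cross the 3′ boundary, one point per library, for the introns called in a comparison (Fbxw4 once, for its 2 introns with a shared acceptor), each panel with its own axis from 0. Adssl1 and Ccdc12 are high in all monocyte libraries, Ubtf is high in MDP and cMoP, the 2 Ly6Chi points of Ikbkap lie apart, and Fbxw4 is low in Ly6Clo alone.

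With no filter on low counts, 1643 chosen introns were tested and 4, 15, 3 and 0 passed in the 4 comparisons with edgeR (0.243%, 0.913%, 0.183% and 0.0%, against 0.0206%, 0.0769%, 0.0238% and 0.0249% of 92359 introns). The genes below owe most of the reads behind the choice to groups in which they were high, so they are described without a test. Adgrg3, an adhesion G protein-coupled receptor with 2 such introns that share an acceptor, had 809 boundary reads in MDP, 125 and 61 in cMoP and 0 to 3 in each monocyte library. Sema4d, a semaphorin with a start 193 bases inside, had 10 and 4 reads in cMoP and 480 and 404 in Ly6Chi. Krt80, given above, was also among those that passed. Fitted log2 changes larger in size than that of Adssl1 belonged to Gtf2f2, a general transcription factor subunit, with 0 reads in MDP and 76 and 35 in cMoP, and to 2 introns of the cytokine receptor Il21r, with 72 and 74 reads in cMoP and 7 and 1 in Ly6Chi. The Il21r introns share an acceptor and hence its reads. Reads spliced there numbered only 0 and 1 in cMoP and 11 and 3 in Ly6Chi, so the size of that change is uncertain. The genes of this paragraph were picked after their values were seen.

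The gene lists held between 1 and 44 of the chosen introns each, and none of the 182 tested was called in any of the 4 comparisons with edgeR or DESeq2. An unadjusted edgeR p under 0.05 was reached by 15, 10, 12 and 3 of them (8.24%, 5.49%, 6.59% and 1.65%) in the order above, against 7.04%, 10.1%, 5.39% and 5.77% of all introns. Ribosomal protein and translation genes had 36 of 225 eligible introns (16%), with Rpl11, Rps3, Rps7 and Rps4x the most read. Monocyte surface and effector genes had 37 of 261 (14.2%) in 8 genes, led by Fn1, Fcgr3, Ly6c2 and Cd36, and actin and migration genes 44 of 367 (12%), led by Actb, Coro1a, Fermt3 and Flna. Splicing regulators had 36 of 429 (8.39%), among them Hnrnpk, Rbm3, Hnrnpa2b1 and Srrm1. Since the choice needs reads, these shares depend on how highly the genes are expressed, and over all eligible introns the choice took 1789 of 149562. In these 4 lists, in the order named, 29 of 36, 36 of 37, 43 of 44 and 32 of 36 chosen introns lay on the minus strand. A depth per read of at least 0.5 was reached by 8, 4, 2 and 10 of them.

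Other lists held few. Lysosome and phagocytosis genes had 11 of 230 introns, among them Lipa, lysosomal acid lipase, with an annotated acceptor 4 bases inside and shares of 90.7% to 94.8%. Progenitor and granule genes had 4 of 92, in Prtn3, Calr, Gstm1 and Ms4a3. Myeloid transcription factors had 6 of 296, among them Stat3 and Spi1, which encodes PU.1. Signalling kinases and phosphatases had 16 of 446, nonsense-mediated decay factors 6 of 264, interferon response genes 5 of 226 and antigen presentation genes 1 of 119, in H2-K1.

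Values beside the thresholds were continuous. The introns just inside 100 reads were in 2610318N02Rik, Abce1 and Ak3 with 100 each, and those just outside in Aplp2, Cast and Cd177 with 99. At the limit of 10%, a second Aldh2 intron with 15 of 150 reads, Eef1d with 22 of 220 and Etf1 with 16 of 160 lay inside, and Dnmt1 with 223 of 2222, Hnrnpul1 with 17 of 169 and Gnai2 with 14 of 139 outside.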

How the data were processed

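The authors deposited 1 intron table per library, without a header. Its deposited counts are whole numbers of reads that the authors counted across each boundary and as spliced at each end of an intron, not normalized. Its deposited signal is the depth that the authors computed over the intron and at its ends, not scaled to the library. These meanings were read from the values. The deposited fraction in these tables was not used. The authors deposited a gene table named for FPKM whose columns each sum to 999999 or 1000000, and it was read as TPM. FastQC, Trimmomatic, STAR 2.5.2a and RSEM, with mm10, were used per the submitters' processing notes. No source used here gives the program behind the intron tables or its use of strand. The RNA was read as stranded pairs, per the labels' protocols.

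Members and gene lists were chosen with earlier results of these data known. Boundary counts were joined over the 8 libraries (Python 3.11.15, pandas 2.3.3) and set against GENCODE M21. edgeR 4.0.16 in R 4.3.3 tested 3′ boundary reads against reads spliced at the acceptor, with 1 term per library and all 8 libraries in the fit (3 residual degrees of freedom). It kept unmarked introns with at least 20 boundary and spliced reads in every library and at least 20 boundary reads over all, and called an adjusted p under 0.05. On simulated counts for Ly6Chi against cMoP it recovered 79.2% of 96 introns changed 4-fold and 4.0% of 99 changed 2-fold, with 1 false call among 81, over 33571 introns. The simulation gave every intron the same fixed spread and the replicates of a group the same expected shares. It therefore does not give the recovery for the real replicates. Wilson intervals are at 95%.

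Names were drawn by a rule, and not every intron that it covers is described. It covered the 12 introns with the most 3′ reads and called introns (up to 5 each way). It also covered the 5 highest and 3 lowest shares and the 5 largest shares of splicing elsewhere at either end (ties by most reads). Up to 4 introns per gene list, 3 on either side of each threshold and 5 not one-sided in the knockout completed it. Others are marked as named later. Counts of replicates differed by more than sampling noise (chi-square per degree of freedom 3.56 to 23.7), so none was merged. The alternatives were DESeq2 1.42.0, both boundaries, TMM scaling, no filter, only the groups compared, a replicate block and leaving out each replicate.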

Additional observations from a re-analysis of the deposited data

How the results depend on the processing

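Numbers of chosen introns called are given here in the order cMoP against MDP, Ly6Chi against cMoP, Ly6Clo against Ly6Chi and knockout against Ly6Chi, and were 0, 4, 2 and 0. Beside them 0, 9, 4 and 1 of all introns were called. Testing both boundaries against the larger spliced count gave 0, 2, 0 and 0 (all introns 0, 7, 0 and 1), TMM scaling of boundary and spliced reads apart 4, 23, 5 and 0 (9, 88, 41 and 21), no filter 4, 15, 3 and 0 (19, 71, 22 and 23), only the groups compared 2, 1, 34 and 5 (2, 2, 617 and 220), and DESeq2 0, 7, 2 and 0 (1, 18, 9 and 2). The medians of the chosen introns were 0.41, -0.44, -0.19 and 0.25 with DESeq2. A replicate block gave 2 for Ly6Chi against cMoP and 0 for the knockout, but the samples share only a number (correlation of same-numbered deviations -0.022, -0.032 and -0.014). Leaving out 1 replicate gave 0 to 68, 1 to 77, 0 to 22 and 0 to 7, the most without cMoP replicate 1 in the first 2. The cause was not tested. No called intron changed direction. Adssl1 passed under 12 of 12 alternatives, Ubtf 7 of 12, Ccdc12 5 of 12, Ikbkap 4 of 11 (DESeq2 gave it no adjusted p) and both Fbxw4 introns 6 of 11. The number of chosen introns was 3016 from 50 reads and 1095 from 200 reads, 1285 at a limit of 5% and 2539 at 20%, and 1533 to 1599 with 1 replicate left out. The share read at the 3′ side alone in the knockout was 97.4% from 50 reads, 99.3% at a limit of 20%, 94.9% from 10 reads, and 94.2% to 97.2% with 1 knockout replicate left out. With 3 residual degrees of freedom the test recovered few 2-fold changes on simulated counts, so a missing call does not show that an intron did not change. Introns with few spliced reads have wide errors.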

Other observations

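Among the chosen introns, 119 hold a RefSeq transcript start, 165 starts in all. Of these starts 50 lie within 300 bases of the acceptor. Introns that hold an annotated GENCODE start have a median distance of 126 bases to it, and in 227 introns it is at most 300 bases. The smallest distance named is that of Crip1, a LIM-domain protein, where the annotated start lies 1 base inside the intron (chr12:113149556-113152081) and 10793 boundary reads stand beside 38 spliced reads and a depth per read of 0.0198. Crip1 was named after its values were seen. Sema4d, named as an intron whose acceptor is spliced from other donors, had shares of 35.0% in MDP, 32.3% and 80.0% in cMoP and 93.3% to 98.0% in the monocyte libraries. The progenitor shares rested on few reads: 14 boundary and 26 spliced in MDP, and 10 and 21, then 4 and 1, in cMoP.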
